A study of Mus musculus with 132 samples.

Results

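Gata1, Gata2, Gata3 and Zfpm1, which encode the hematopoietic GATA factors and their shared cofactor FOG1, were followed during blood formation from mouse embryonic stem cells (mESCs). They were chosen by name, as 4 of the 25146 genes in the count table, and all 4 have counts in at least 1 of the 23 RNA-seq libraries. The question was whether expression moves from *Gata2* to *Gata1* as mesoderm becomes blood. The members were not selected on any value of these libraries, although they were proposed with earlier results of the series known.

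The cells were of the mouse ESC line E14-TG2a. Embryoid bodies were grown with BMP4 and then also with bFGF and Activin A, and Flk1+ mesoderm was sorted at day 4 and cultured with SCF and VEGF. At day 7 CD41+ hematopoietic progenitor cells (HPCs) were isolated, with CD45+ and Ter119+ cells excluded by the gates. Poly(A)-minus RNA, which lacks polyadenylated messages and holds unprocessed transcripts, was sequenced, and reads in exons and introns were counted together, so the values below describe this RNA and not mature mRNA. Wild-type cells gave 2 mESC libraries at day 0 (technical replicates of 1 culture), 3 mesoderm libraries and 4 HPC libraries (B9.3, C6.1, C8.1). P1-CTCF-KO clones (E7.1, E7.2 and E9.1), in which CRISPR-Cas9 removed the CTCF site beside the distal *Runx1* promoter P1, gave 3 mesoderm and 3 HPC libraries. P2-CTCF-KO clones (D10.1, D2.1 and another E9.1), in which the site beside the proximal promoter P2 was removed, gave 3 mesoderm and 5 HPC libraries. Clones B9.3, D10.1 and D2.1 have a repeat HPC library each (B9.3-2, D10.1-2 and D2.1-2), and each genotype therefore rests on 3 clones. P-values measure the spread between these libraries. For mESCs that is no spread between cultures, and for HPCs it counts repeat libraries of a clone as separate libraries. ATAC-seq peaks of mesoderm (4 libraries merged) and HPCs (2 libraries merged) and CTCF ChIP-seq peaks of 416B, a mouse myeloid progenitor line, were read at the same genes. The mesoderm ATAC-seq libraries came from 2 experiments, and the HPC ATAC-seq libraries were technical replicates from 1 experiment.

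GATA factors are zinc finger proteins that bind the letters GATA in enhancers and promoters. GATA2 acts in hemogenic endothelium and early blood progenitors, and GATA1 takes over many of its sites as erythroid, megakaryocytic and mast cells form, a replacement known as the GATA switch. FOG1 binds the amino-terminal finger of GATA factors, carries them to the NuRD remodeller and is needed for the switch at many genes, while GATA3 is best known in T cells, trophoblast and sympathetic neurons.

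Total counts were 20532578 to 24283287 in mESCs, 18233679 to 24406998 in mesoderm and 7805102 to 13513677 in HPCs. Ribosomal RNA and entries with several loci (187 of them) took 68.1% to 76.3%, 88.8% to 91.0% and 87.8% to 89.1% of these, and counts on the other genes were 4858658 to 7748566, 1897917 to 2288976 and 878966 to 1584401. Levels below are CPM, counts scaled to effective library sizes from TMM normalization, per kb means divided by the length of the gene span, and a gene was called where the adjusted p was under 0.05 and the log2 fold change at least 1 in size. Depletion of ribosomal RNA is named for the mESC libraries only, so each comparison with mESCs is also one between library preparations. The sorting labels were visible in the RNA: *Itga2b*, which encodes CD41, had 0.91 ± 0.376 CPM (SD, n = 3) in wild-type mesoderm and 28.4 ± 10.8 CPM (n = 4) in wild-type HPCs, and *Kdr*, which encodes Flk1, had 27.2 ± 10.5 and 6.58 ± 3.6 CPM.

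*Gata1* (chromosome X, 7536385 to 7545036, minus strand, mm9), the erythroid and megakaryocytic factor, was nearly silent until the HPC stage. It had 0 counts in both mESC libraries. Wild-type mesoderm had 1 count in B9.3, 0 in C6.1 and 1 in C8.1, P1-CTCF-KO mesoderm had 2, 2 and 0 in E7.1, E7.2 and E9.1, and P2-CTCF-KO mesoderm had 0, 0 and 1 in D10.1, D2.1 and E9.1. Every one of the 12 HPC libraries held more, so the stages did not overlap. Wild-type HPCs had 39, 23, 36 and 52 counts in B9.3, B9.3-2, C6.1 and C8.1, or 3.35, 2.94, 3.55 and 4.33 CPM. P1-CTCF-KO HPCs had 22, 34 and 43 counts, or 4.46, 3.8 and 5.45 CPM in E7.1, E7.2 and E9.1. P2-CTCF-KO HPCs had 59, 39, 19, 30 and 26 counts in D10.1, D10.1-2, D2.1, D2.1-2 and E9.1, or 5.72, 3.75, 1.33, 3.17 and 2.82 CPM, so that D2.1 was the lowest of all HPC libraries.

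Between wild-type mesoderm and HPCs *Gata1* rose by a log2 fold change of 6.15 (SE 0.49, adjusted p = 2.17e-05, edgeR quasi-likelihood test with Benjamini-Hochberg adjustment). *Gata1* passed the filter on low counts through the HPC libraries, so the direction of its test was largely set by that filter. Because mesoderm held 2 counts, the ratio of pooled CPM was 76.0 with a counting interval of 20.7 to 633 (exact, 95%, counting error only). The same ratio was 64.3 (24.4 to 241) in P1-CTCF-KO and 125 (22.1 to 4950) in P2-CTCF-KO, where mesoderm held 4 counts and 1 count. Against mESCs, wild-type HPCs were at least 343-fold higher, taking 3 counts over both mESC libraries as the floor, or at least 140-fold with library sizes from the single-locus genes. The rise from mESCs to mesoderm passed the test (4.04, SE 1.06, adjusted p = 0.0226, edgeR) but rested on 2 counts, and it was lost when either mESC library, B9.3 or C8.1 was left out (adjusted p from 0.0805 to 0.13, edgeR).

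No HPC ATAC-seq peak lay within 10 kb of *Gata1*, the nearest being 11.3 kb from its span. The background was 59.7% of 24959 genes with an HPC peak within that distance and 82.7% with a mesoderm peak. Mesoderm had 1 peak, centred 15.7 kb downstream of the start, and it is shown because it was the single open region found near the gene. In all sequences below, capitals mark the GATA motif searched, which is AGATAA and AGATAG, with TGATAA and then TGATAG, on either strand, letters are given 5′ to 3′ on the strand of the gene, and the windows are 200 bases centred on a peak.

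Gata1 downstream window open in mesoderm, chrX:7529198-7529397: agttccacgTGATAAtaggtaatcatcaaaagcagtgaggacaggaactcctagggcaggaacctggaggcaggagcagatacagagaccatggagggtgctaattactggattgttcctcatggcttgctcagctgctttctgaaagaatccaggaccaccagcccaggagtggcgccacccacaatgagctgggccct

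*Gata2* (chromosome 6, 88143884 to 88157026, plus strand), the factor of hemogenic endothelium and progenitors, appeared in mesoderm and was not called as changed on entry to the HPC stage. The mESC libraries had 22 and 10 counts, or 0.12 and 0.0981 CPM. Wild-type mesoderm had 16, 9 and 28 counts in B9.3, C6.1 and C8.1, or 0.928, 1.09 and 1.68 CPM, and wild-type HPCs had 10, 5, 11 and 10 counts in B9.3, B9.3-2, C6.1 and C8.1, or 0.859, 0.64, 1.08 and 0.833 CPM. Mesoderm lay above the mESC libraries throughout, and the ranges of mesoderm and HPCs overlapped. The rise from mESCs to mesoderm was 3.46 (SE 0.42, adjusted p = 0.00027, edgeR), or 1.77 and still called with library sizes from the single-locus genes.

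The step of *Gata2* from wild-type mesoderm to HPCs was -0.53 (SE 0.35, 95% interval -1.3 to 0.24, adjusted p = 0.299, edgeR). It was -0.12 with single-locus library sizes and -0.74 to -0.21 with single libraries left out, and was called in none of these. The interval reaches from a fall of more than 1 on the log2 scale to a small gain, and at 5 to 28 counts a library a smaller fall was not detectable. In P1-CTCF-KO the mesoderm libraries had 25, 15 and 23 counts and the HPC libraries 10, 10 and 9, or 1.47, 0.618 and 1.51 against 2.03, 1.12 and 1.14 CPM in E7.1, E7.2 and E9.1. In P2-CTCF-KO mesoderm had 9, 9 and 11 counts (0.62, 0.844 and 0.814 CPM) and HPCs 10, 9, 7, 8 and 8 (0.969, 0.865, 0.488, 0.845 and 0.869 CPM). The steps in these genotypes were 0.22 (95% interval -0.56 to 1.0, adjusted p = 0.678) and 0.06 (-0.69 to 0.8, adjusted p = 0.942) by edgeR, and their ranges overlapped between the stages. No difference of the *Gata2* step between a KO and wild type was called.

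At *Gata2* the mesoderm list had 3 ATAC-seq peaks within 10 kb, at 4.1 kb upstream of the start (364 bases wide), 4.7 kb downstream in an annotated exon (151 bases) and 9.7 kb downstream in an intron (91 bases). HPCs had 0, and the nearest HPC peak was 69.7 kb away. The HPC list is shorter (29037 peaks against 76766), from fewer libraries, and 1 merged list per stage has no replicate, so the absence of a peak has no error. 416B cells had 1 CTCF peak (67.6% of genes had one within 10 kb), 9.4 kb downstream in an intron, which overlapped no mesoderm peak. The 3 sequences that carry this are the upstream mesoderm window, the CTCF window and the mesoderm window beside it.

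Gata2 upstream window open in mesoderm, chr6:88139683-88139882: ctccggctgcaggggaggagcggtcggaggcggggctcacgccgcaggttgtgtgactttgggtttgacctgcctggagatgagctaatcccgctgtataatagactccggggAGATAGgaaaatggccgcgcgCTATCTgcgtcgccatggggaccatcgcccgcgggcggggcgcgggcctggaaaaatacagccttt
Gata2 intronic CTCF window, chr6:88153139-88153338: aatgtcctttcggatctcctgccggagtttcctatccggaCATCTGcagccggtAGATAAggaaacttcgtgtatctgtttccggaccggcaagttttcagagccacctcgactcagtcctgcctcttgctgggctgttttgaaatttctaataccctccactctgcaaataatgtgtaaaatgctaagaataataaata
Gata2 intronic window open in mesoderm, chr6:88153443-88153642: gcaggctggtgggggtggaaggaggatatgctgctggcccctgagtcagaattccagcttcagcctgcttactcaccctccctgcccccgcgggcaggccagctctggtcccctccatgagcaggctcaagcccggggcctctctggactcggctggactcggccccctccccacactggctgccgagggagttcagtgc

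The upstream window held 2 GATA motifs, 1 on each strand, and the third window held none. In the CTCF window the capitals mark an E-box (CANNTG, here CATCTG) followed after 8 bases by AGATAA, the arrangement that TAL1 and GATA factors are known to bind together, as in the intronic *Gata2* enhancer described in blood progenitors. This composite was searched after earlier values were seen, and it occurs in 0.168% of the 44513 CTCF windows, 0.457% of mesoderm windows, 0.703% of HPC windows and 0.228% of 300-base promoters. A GATA motif alone occurs in 33.7%, 26.8% and 24.1% of mesoderm, HPC and CTCF windows. These are matches of letters and do not show binding.

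**Figure D1:**
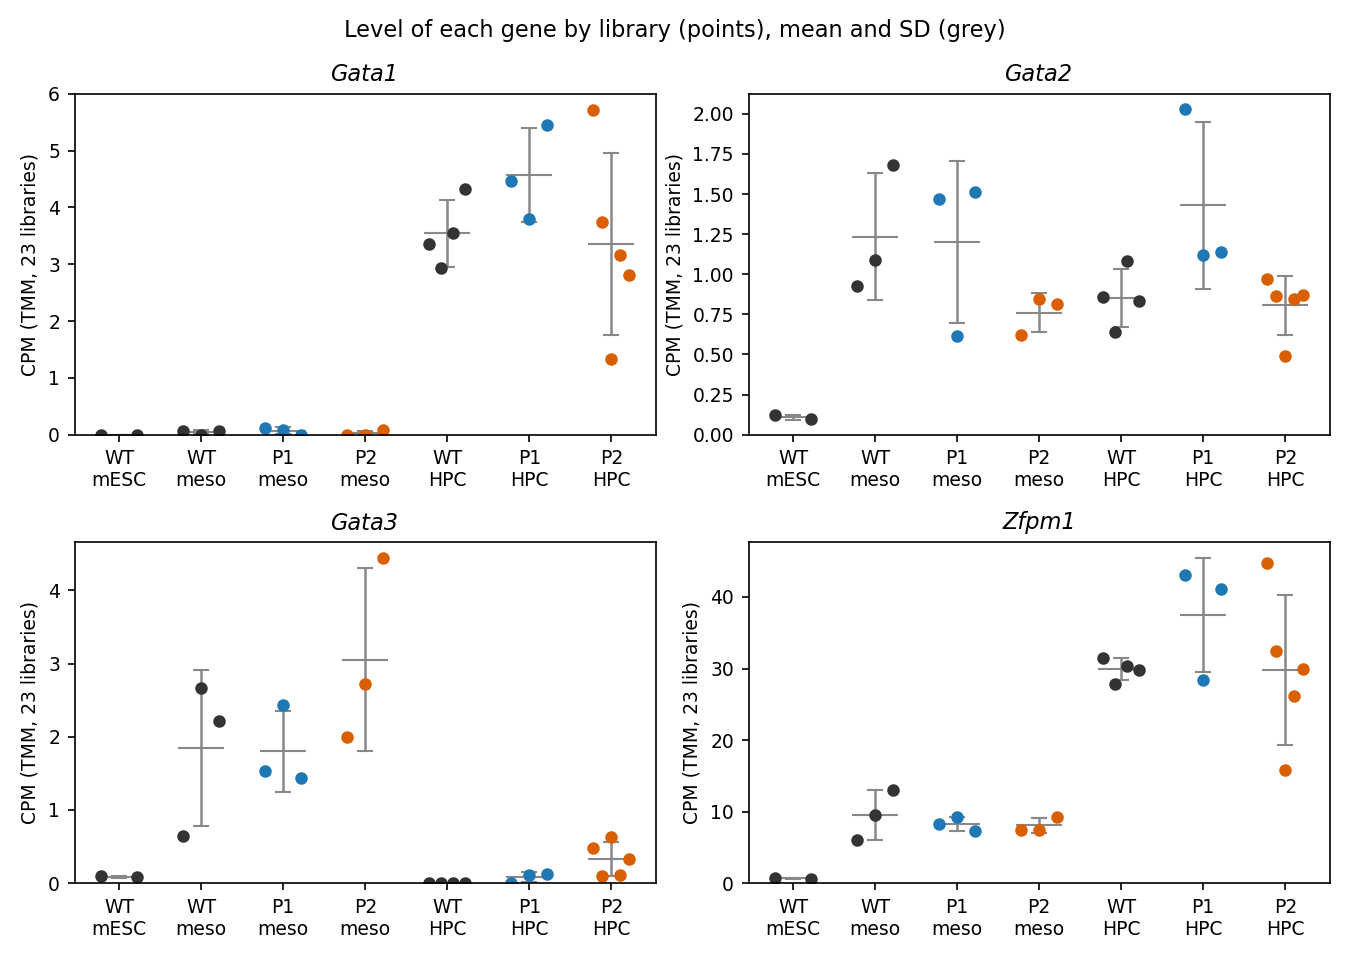
CPM (TMM, vertical axes, linear and starting at 0) of the 4 genes in each of the 23 libraries by stage and genotype, with points for libraries and bars for the mean ± SD of a group. Gata1 is at 0 to 0.117 CPM in mesoderm and 1.33 to 5.72 CPM in HPCs, Gata2 overlaps between these stages, Gata3 is highest in mesoderm and Zfpm1 is highest in HPCs.

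The balance of *Gata1* and *Gata2* turned over in every clone. Per kb, *Gata2* was above *Gata1* in 9 of 9 mesoderm libraries and *Gata1* above *Gata2* in 12 of 12 HPC libraries. In wild-type means the per-kb levels were 0.00455 CPM for *Gata1* and 0.0939 for *Gata2* in mesoderm, and 0.41 and 0.065 in HPCs. *Gata1* gave 7 of 152 counts on the pair in mesoderm (4.61%, exact binomial 95% interval 1.87% to 9.26%) and 422 of 529 in HPCs (79.8%, 76.1% to 83.1%), intervals that cover counting error only. Over single libraries the share was 0% to 11.8% in mesoderm and 68.8% to 85.5% in HPCs. The share among HPCs was 80.6% in wild type, 77.3% in P1-CTCF-KO and 80.5% in P2-CTCF-KO.

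As the log2 ratio of *Gata1* to *Gata2* per kb (0.5 counts added to each), wild-type mesoderm had -2.86, -3.64 and -3.64, and wild-type HPCs 2.51, 2.7, 2.27 and 2.93. P1-CTCF-KO mesoderm had -2.75, -2.03 and -4.95 and its HPCs 1.7, 2.32 and 2.8. P2-CTCF-KO mesoderm had -3.64, -3.64 and -2.34 and its HPCs 3.11, 2.66, 1.98, 2.45 and 2.24. The stages did not overlap in any genotype, and no library of one stage came within 3 log2 units of the other.

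The stage difference in this ratio was 5.98 in wild type, 5.52 in P1-CTCF-KO and 5.7 in P2-CTCF-KO. Because mesoderm held 0 to 2 *Gata1* counts a library, its size depends on the counts added: with 0.1 added the 3 values were 7.07, 6.47 and 7.38, and with 2 added 4.62, 4.37 and 4.07. Two-sided exact permutation tests gave p = 0.0571, 0.1 and 0.0357, each the smallest that its number of libraries allows, and adjusted p = 0.0762, 0.1 and 0.0714 over 4 tests. With labels permuted within genotypes, the pooled difference was 5.73 (exact permutation p = 5.1e-05, the smallest of 39200 arrangements, adjusted p = 0.000204). The ratio was higher in HPCs in 9 of 9 clones, by 4.35 to 7.75 with 0.5 counts added, and with the clone as the unit an exact sign-flip test gave adjusted p = 0.0156. Since *Gata2* itself was not called as lower, what was called in this turnover is the gain of *Gata1*. In bulk libraries fewer cells of a type and less RNA per cell cannot be told apart, so the turnover is one of the sorted population and not of single cells.

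**Figure D2:**
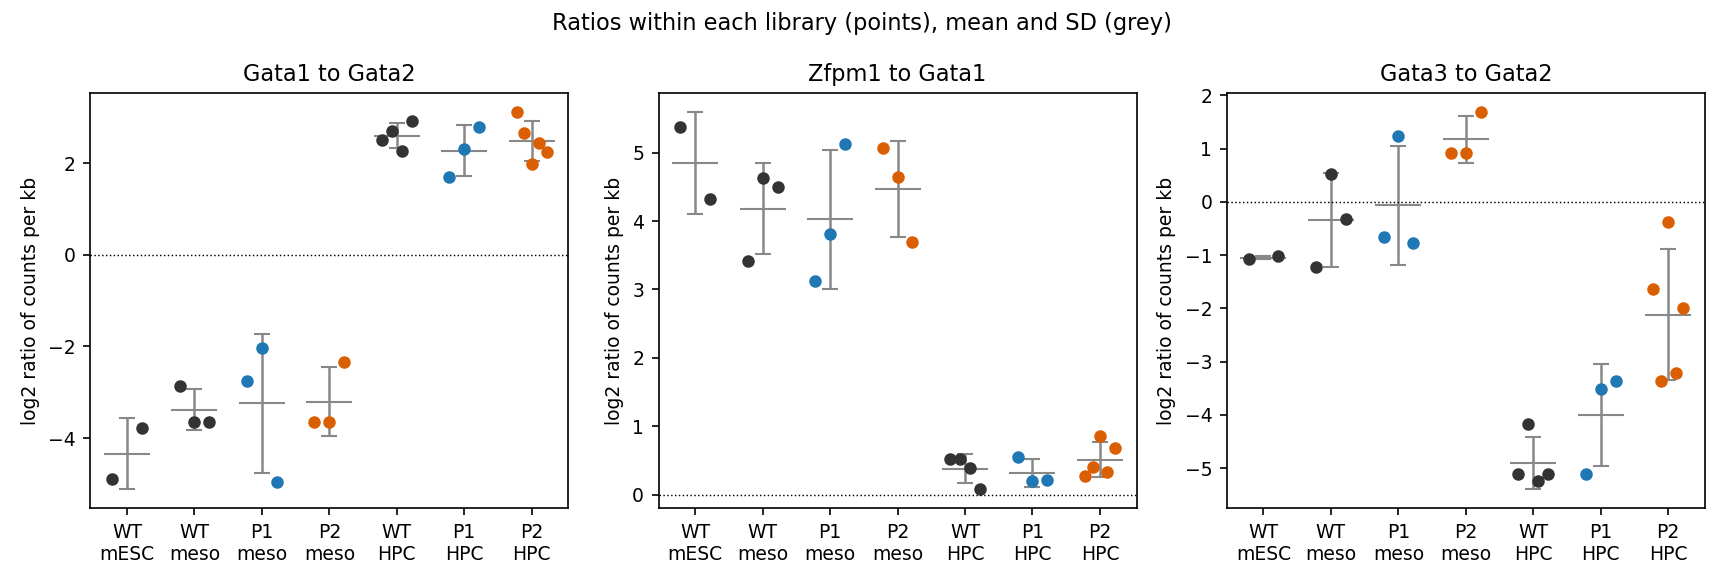
Log2 ratios of CPM per kb (vertical axes) within each library for Gata1 to Gata2, Zfpm1 to Gata1 and Gata3 to Gata2, by stage and genotype, with points for libraries and bars for the mean ± SD. The first ratio lies between -4.95 and -2.03 in mesoderm and between 1.7 and 3.11 in HPCs in all 3 genotypes.

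*Gata3* (chromosome 2, 9778704 to 9800227, minus strand) behaved in the opposite way to *Gata1*. The antisense gene Gm13256 overlaps it and the strand setting of the counting is not given in the sources used here, so its counts may include reads of both. The mESC libraries had 17 and 8 counts, or 0.0928 and 0.0785 CPM. Wild-type mesoderm had 11, 22 and 37 counts in B9.3, C6.1 and C8.1, or 0.638, 2.67 and 2.22 CPM, and all 4 wild-type HPC libraries had 0. P1-CTCF-KO mesoderm had 26, 59 and 22 counts (1.53, 2.43 and 1.44 CPM) and its HPCs 0, 1 and 1. P2-CTCF-KO mesoderm had 29, 29 and 60 counts (2.0, 2.72 and 4.44 CPM), and its HPCs had 5, 1, 9, 1 and 3 in D10.1, D10.1-2, D2.1, D2.1-2 and E9.1. No HPC library reached the lowest mesoderm library of 0.638 CPM, and the nearest was P2-CTCF-KO D2.1 at 0.628. With single-locus library sizes this separation did not hold, since D2.1 (6.23) then lay above wild-type mesoderm B9.3 (5.54).

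*Gata3* rose from mESCs to wild-type mesoderm by 4.3 (SE 0.66, adjusted p = 0.00212, edgeR), or by 2.52 with single-locus library sizes, and fell on entry to the HPC stage in each genotype. In wild type the fall was called (adjusted p = 0.0014, edgeR), and with 3 counts over the 4 HPC libraries as the floor mesoderm was at least 23-fold higher, or at least 17.3-fold with single-locus library sizes. *Gata3* passed the filter on low counts through the mesoderm libraries, so the direction of its tests was largely set by that filter. In P1-CTCF-KO the step was -4.18 (SE 0.85, adjusted p = 0.0013, edgeR), a pooled ratio of mesoderm to HPCs of 20.6 (5.56 to 172) on 2 HPC counts. In P2-CTCF-KO it was -3.13 (SE 0.52, adjusted p = 0.000235, edgeR), a ratio of 8.62 (5.28 to 14.8), and -3.56 without D2.1. The difference of the P2-CTCF-KO step from that of wild type was not called (adjusted p = 0.423, edgeR), and its fitted size is not given because wild-type HPCs were all at 0. *Gata3* in wild-type HPCs was not called against mESCs (adjusted p = 0.117, edgeR), but it was called lower with single-locus library sizes (0.00885), with no filter (0.0447) and without mesoderm library B9.3 (0.0435), and not by DESeq2 (0.149).

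Among HPCs *Gata3* and *Gata2* had too few counts for the filter of the genotype fit and were compared by exact permutation of CPM in an analysis added after the values were seen. These permutations took each library as a unit, although repeat libraries of a clone are not independent. No test with the clone as the unit was run for them, so their p-values overstate the replication. *Gata3* had 0.328 ± 0.233 CPM (n = 5) in P2-CTCF-KO against 0 in wild type (n = 4) with no overlap, at least 4.9-fold higher by the floor (exact permutation p = 0.0159, the smallest possible, adjusted p = 0.0954 over 6 tests). Without D2.1 the difference was 0.253 CPM (p = 0.0286, exact permutation, again the smallest possible). All 3 P2-CTCF-KO clones held *Gata3* counts, 6 in D10.1, 10 in D2.1 and 3 in E9.1 with repeat libraries summed. *Gata2* in P1-CTCF-KO HPCs lay above that in wild type with no overlap, by 0.575 CPM (exact permutation p = 0.0571, the smallest possible, adjusted p = 0.114). P2-CTCF-KO against P1-CTCF-KO HPCs gave -0.622 CPM, also with no overlap (p = 0.0357, exact permutation, the smallest possible, adjusted p = 0.107). With single-locus library sizes the P1-CTCF-KO libraries (8.53 to 10.4) overlapped wild type (5.55 to 9.83), and the edgeR difference was 0.2 (adjusted p = 0.777).

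Chromatin at the *Gata3* start was open in both stages. Mesoderm had 6 ATAC-seq peaks within 10 kb, 3 of them overlapping the 1 kb on either side of the start, and HPCs had 3, all of which overlapped a mesoderm peak. Of all genes, 55.2% had a mesoderm peak and 37.1% an HPC peak at the promoter by the same rule. The start itself, the 416B CTCF site 1.2 kb upstream and a site 11.3 kb downstream in an intron were the shared regions. The window at the start is shown because it stayed on the list where the RNA was at or near 0. It holds 1 GATA motif.

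Gata3 start-site window open in mesoderm, minus strand, chr2:9800169-9800368: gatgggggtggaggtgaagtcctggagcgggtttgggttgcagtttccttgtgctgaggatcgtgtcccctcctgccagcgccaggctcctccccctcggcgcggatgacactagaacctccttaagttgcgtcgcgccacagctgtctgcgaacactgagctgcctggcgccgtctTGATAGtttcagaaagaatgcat

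*Zfpm1* (chromosome 8, 124806040 to 124861762, plus strand), the gene of FOG1, was already transcribed in mesoderm and rose further. It lies within the span of the annotated gene Gm20388, which can share its reads. The mESC libraries had 133 and 64 counts, or 0.726 and 0.628 CPM. Wild-type mesoderm had 103, 79 and 217 counts in B9.3, C6.1 and C8.1, or 5.98, 9.59 and 13.0 CPM, and wild-type HPCs had 367, 218, 308 and 358, or 31.5, 27.9, 30.4 and 29.8 CPM. P1-CTCF-KO moved from 8.22, 9.26 and 7.34 CPM to 43.0, 28.4 and 41.1, and P2-CTCF-KO from 7.44, 7.5 and 9.25 CPM to 44.8, 32.4, 15.8, 26.1 and 29.9. The 3 stages did not overlap, and the lowest HPC library was again P2-CTCF-KO D2.1.

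*Zfpm1* rose from mESCs to wild-type mesoderm by 3.8 (SE 0.34, adjusted p = 7.1e-05, edgeR), or by 2.08 with single-locus library sizes, and from there to HPCs by 1.65 (SE 0.25, adjusted p = 0.000598, edgeR). The later step was 2.17 (SE 0.30, adjusted p = 3.55e-05) in P1-CTCF-KO and 1.86 (SE 0.28, adjusted p = 7.52e-05) in P2-CTCF-KO by the same test. Per kb *Zfpm1* was the highest of the 4 genes in 8 of 9 mesoderm and 12 of 12 HPC libraries. It exceeded *Gata1* by 3.13 to 5.13 log2 units in mesoderm and by 0.08 to 0.86 in HPCs, so the pair lay within 1 log2 unit per kb of each other in every HPC library.

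At *Zfpm1*, the longest of the 4 genes and so the one with the widest search, mesoderm had 10 ATAC-seq peaks within 10 kb of its span and HPCs 6, of which 5 overlapped a mesoderm peak. The sixth, 31.5 kb downstream in an intron and 77 bases wide, was on the HPC list only. Of the HPC windows 5 of 6 held a GATA motif, against 26.8% of all HPC windows, and of the mesoderm windows 5 of 10, against 33.7%. The shared site 27.3 kb downstream is shown for its 5 motifs, the most of any window at these genes, and the HPC site for its 3.

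Zfpm1 intronic window open in mesoderm, chr8:124833284-124833483: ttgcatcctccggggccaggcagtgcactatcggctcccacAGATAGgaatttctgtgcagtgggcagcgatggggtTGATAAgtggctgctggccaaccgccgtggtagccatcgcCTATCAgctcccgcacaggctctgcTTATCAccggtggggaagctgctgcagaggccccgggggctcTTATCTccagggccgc
Zfpm1 intronic window open in HPCs, chr8:124837426-124837625: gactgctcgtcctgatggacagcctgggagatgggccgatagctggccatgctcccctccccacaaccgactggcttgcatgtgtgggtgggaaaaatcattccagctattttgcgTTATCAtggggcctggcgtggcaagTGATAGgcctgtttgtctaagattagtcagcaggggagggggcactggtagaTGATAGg

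The 300-base promoters (250 bases before to 50 after the start) of *Gata1*, *Gata2* and *Zfpm1* held no GATA motif and that of *Gata3* held 1, while 27.2% of all promoters held one. No match says only that these letters are not in the window.

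**Figure D3:**
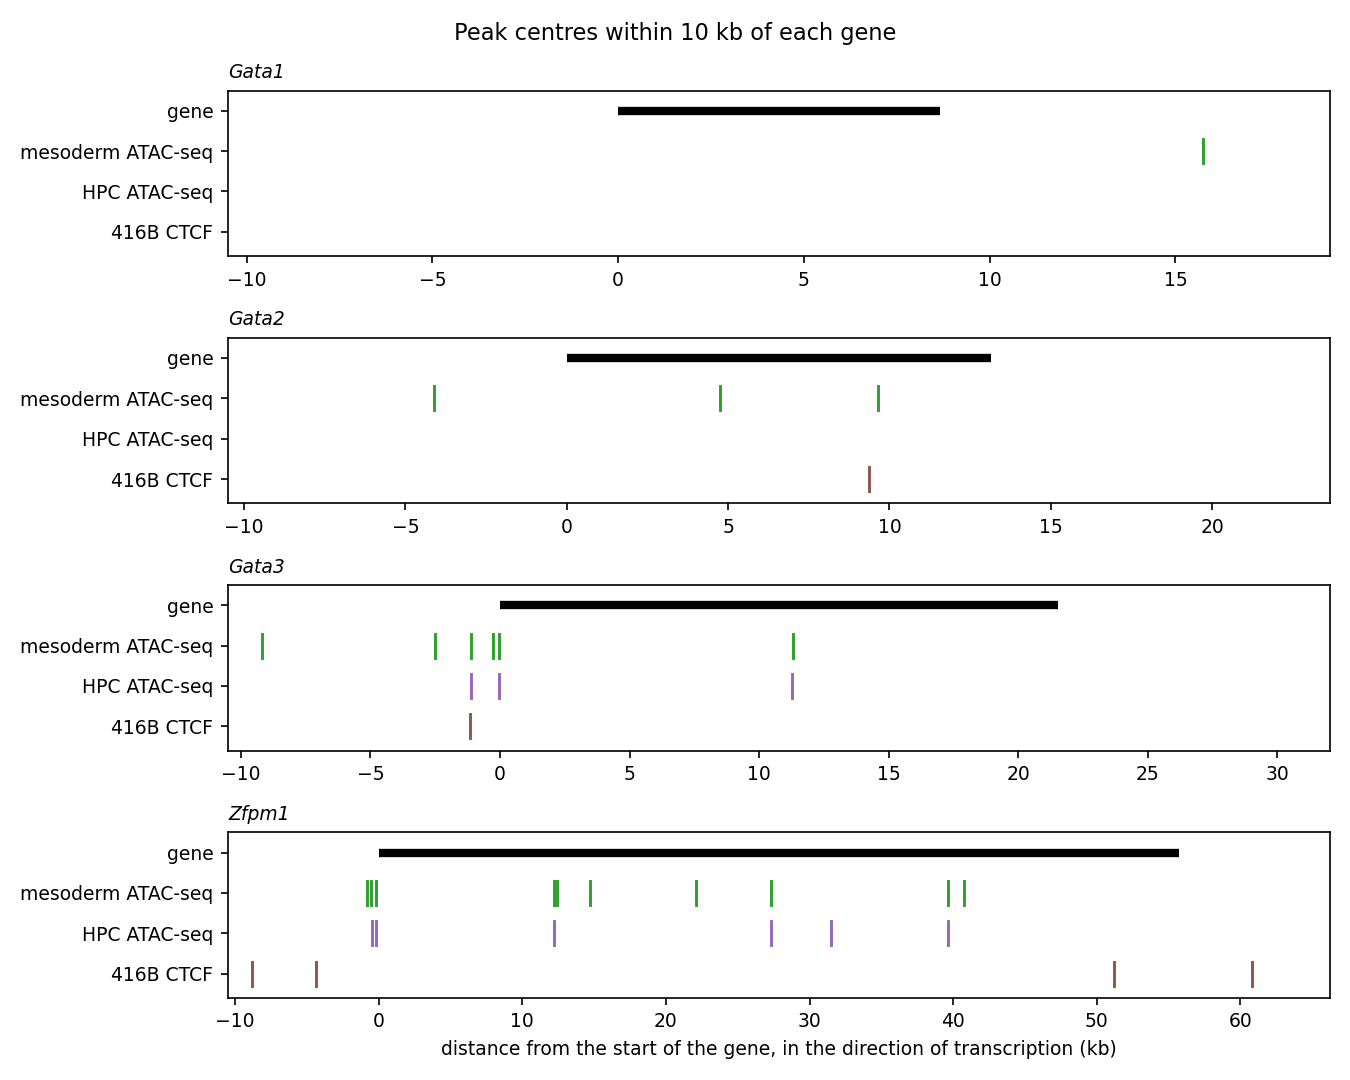
Centres of the ATAC-seq peaks of mesoderm and HPCs and of the 416B CTCF peaks within 10 kb of each gene span, by distance from the gene start in kb (horizontal axis, downstream to the right). Gata1 and Gata2 have no HPC peak, and Gata3 and Zfpm1 have 3 and 6.

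Taking the 4 genes as 1 set of comparisons, 4 of 4 passed the test in wild-type mesoderm against mESCs, where 24.4% of 12899 genes did (3 to 4 with single libraries left out, since *Gata1* rested on 2 counts and passed the filter through the HPC libraries), and 3 of 4 in wild-type HPCs against mesoderm, where 23.3% did. In P1-CTCF-KO and P2-CTCF-KO 3 of 4 passed for the stage step, with backgrounds of 32.6% and 28.2% of 9170 genes. In wild-type HPCs against mESCs 3 of 4 passed, with a background of 41.9%, *Gata2* by 2.92 (adjusted p = 0.000211, edgeR) and *Zfpm1* by 5.45 (adjusted p = 2.54e-06, edgeR). *Gata1* entered these fits through the HPC libraries and *Gata3* through the mesoderm libraries, so nothing is read from the counts of members that passed. The wild-type steps refitted with the KO libraries in 1 model of 21 were 5.93 for *Gata1*, -0.56 for *Gata2* and 1.62 for *Zfpm1*.

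**Figure D4:**
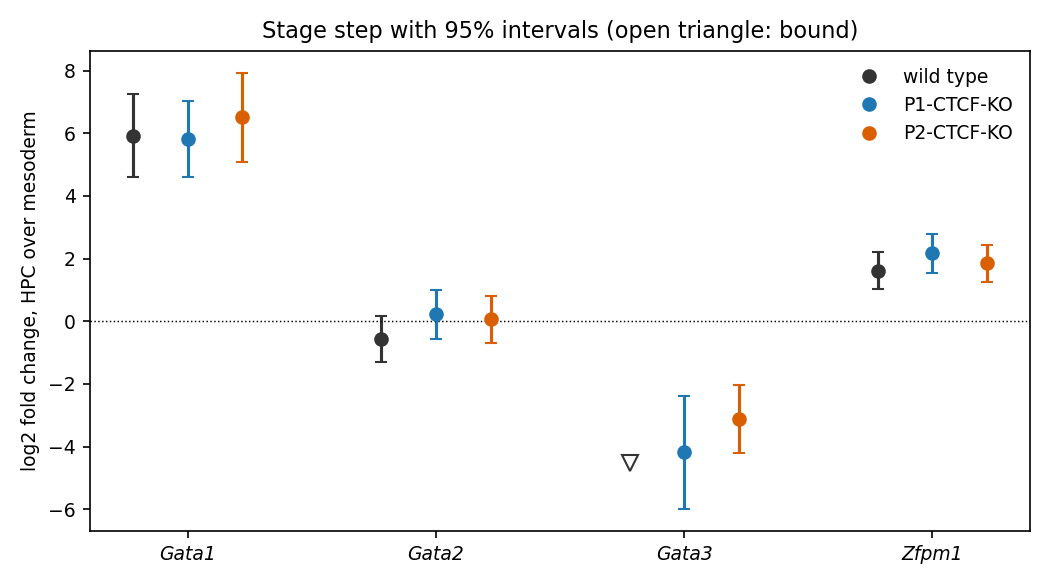
Log2 fold change of HPCs over mesoderm (vertical axis) with its 95% interval for each gene in each of the 3 genotypes, from 1 edgeR fit of 21 libraries. Gata1 and Zfpm1 lie above 0 and Gata3 below it in each genotype, and every Gata2 interval includes 0. The open triangle marks the bound for wild-type Gata3, whose HPC libraries are all at 0.

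Neither CTCF-site deletion gave a called difference in these genes at either stage. The counts were 0 members called in each of the 6 genotype contrasts, with backgrounds of 0% to 0.0342% of genes, and 0 in the differences of the stage step, with backgrounds of 0% and 0.0218%. *Gata1* passed the filter among HPCs only, and *Gata2* and *Gata3* among mesoderm only. In mesoderm the P2-CTCF-KO differences from wild type were 0.81 for *Gata3* (95% interval -0.23 to 1.85, adjusted p = 0.427), -0.69 for *Gata2* (-1.63 to 0.24, adjusted p = 0.451) and -0.21 for *Zfpm1* (-0.77 to 0.35, adjusted p = 0.73) by edgeR. Among HPCs *Gata1* differed from wild type by 0.39 in P1-CTCF-KO (-0.4 to 1.17, adjusted p = 0.91) and by -0.08 in P2-CTCF-KO (-0.77 to 0.6, adjusted p = 1) by edgeR. The intervals for *Gata3* and *Gata2* in mesoderm and for *Gata1* in P1-CTCF-KO HPCs include a change of 1 log2 unit, and those for *Zfpm1* in mesoderm and *Gata1* in P2-CTCF-KO HPCs do not.

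The *Gata1* to *Gata2* ratio had differences from wild type of 0.14 and 0.17 in mesoderm and -0.33 and -0.11 in HPCs for P1-CTCF-KO and P2-CTCF-KO (adjusted p = 1 for all 4, exact permutation). The ratio of *Gata3* to *Gata2* was positive in all 3 P2-CTCF-KO mesoderm libraries (0.92, 0.92 and 1.68) and took both signs in wild type (-1.23, 0.53 and -0.32). It was not tested.

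The partners of GATA factors moved in part. The TAL1 complex joins GATA factors to E-box proteins at erythroid enhancers, and 4 of its 7 genes rose from wild-type mesoderm to HPCs (background 10.8% higher). They were *Tal1* (1.94, SE 0.21, adjusted p = 5.97e-05), its paralog *Lyl1* (2.37, SE 0.52, adjusted p = 0.00548), the bridging factor *Lmo2* (2.29, SE 0.33, adjusted p = 0.000393) and the corepressor *Cbfa2t3* (2.67, SE 0.21, adjusted p = 1.52e-05), all by edgeR. The dimerizing cofactor *Ldb1* (-0.3) and the E proteins *Tcf12* (-0.49) and *Tcf3* (-0.98) were not called. With RLE size factors 1 gene of this list was called lower in wild type, where 1693 of 12899 genes were. In P1-CTCF-KO 4 were called higher and 1 lower (background 16.6% higher and 16.1% lower). Of 10 genes of NuRD, the remodeller that FOG1 recruits, 1 fell, the histone chaperone *Rbbp7* (-1.0, adjusted p = 0.00536, edgeR), and the list median was -0.41 against -0.01 for all genes. With single-locus library sizes no NuRD gene was called and that median was 0.02.

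*Cbfa2t3*, which encodes ETO2, was the 1 list gene called in P2-CTCF-KO against wild-type mesoderm by the edgeR fit described above, of 47 tested, and was singled out after its value was seen. It had 28 to 63 counts (3.47 ± 0.159 CPM, n = 3) in wild-type, 42 to 51 (2.53 ± 0.602, n = 3) in P1-CTCF-KO and 5 to 9 (0.493 ± 0.162, n = 3) in P2-CTCF-KO mesoderm. It was lower in P2-CTCF-KO than in wild type by a log2 fold change of -2.78 (SE 0.31, adjusted p = 0.0224, edgeR), 1 of 3 genes called of 8778 (0.0342%). Over 15 alternatives the value lay between -3.07 and -2.56, and in 6 of them, all with a mesoderm library left out, the adjusted p was over the threshold (up to 0.14, edgeR). By the HPC stage it had 19.8 ± 3.83 CPM (n = 5) in P2-CTCF-KO and 22.2 ± 3.04 (n = 4) in wild type. *Tal1* in P2-CTCF-KO mesoderm was -1.89 from wild type and was not called (adjusted p = 0.179, edgeR). In the same contrast the 6 endothelial markers tested had a median of -5.43 and the 6 GATA2 progenitor targets one of -2.63 against 0.01 for all genes. None of these was called in that fit, but DESeq2 called 4 of 8 endothelial markers and 2 of 8 GATA2 targets lower, and single-locus library sizes 5 of 6 and 3 of 6. Of all genes, 140 of 9934 were called lower by DESeq2 and 184 of 8670 with those sizes. Summed over 8 markers, endothelial RNA overlapped, with 24.7 to 30.4 CPM in P2-CTCF-KO mesoderm and 25.4, 28.7 and 114 CPM in wild type. The sum includes *Kdr*, on whose product these cells were sorted, and its part was not taken out. The overlap therefore does not speak for the other markers. *Erg*, an endothelial and progenitor factor gene, had 0 counts in all 3 P2-CTCF-KO and 2 to 144 in the wild-type mesoderm libraries. The part of these genes in the *Cbfa2t3* difference was not tested.

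Where tested, other genes with GATA-type fingers or FOG domains had less RNA in wild-type HPCs than in mesoderm, as *Gata3* had. In the fit of mesoderm libraries alone 5 of them passed the filter and in that of HPCs alone 2. The direction of the count below was thus set in part by the filter, and nothing is read from it. Of 4 tested, 3 fell from wild-type mesoderm to HPCs (background 12.5% lower), the heart and endoderm factors *Gata4* (-4.45, SE 0.73, adjusted p = 0.001) and *Gata6* (-3.6, SE 0.73, adjusted p = 0.0034) and the repressor *Trps1* (-2.27, SE 0.4, adjusted p = 0.00157), by edgeR. The FOG2 gene *Zfpm2* had -2.14 and was not called (adjusted p = 0.0679, edgeR), and *Gata5* did not pass the filter. *Gata4* and *Gata6* fell in both KO genotypes as well, with -5.79 and -3.83 in P1-CTCF-KO and -3.57 and -3.87 in P2-CTCF-KO, while *Trps1* (-1.36 and -0.93) was not called there. The median of the list stayed negative under each scaling tried, from -2.99 to -2.58 in wild type.

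Known targets of GATA1 had more RNA in HPCs than in mesoderm. Most of them passed the filter through the HPC libraries alone, as 1 of 13 erythroid and 3 of 11 megakaryocyte genes did in mesoderm by themselves, so the direction of the count was largely set by the filter and nothing is read from it. All 13 erythroid genes were called higher in HPCs in each genotype. They included the embryonic globin gene *Hbb-bh1* (0.0967 ± 0.167 CPM in 3 mesoderm and 38.4 ± 11.8 in 4 HPC libraries of wild type), the erythropoietin receptor gene *Epor* (3.69, adjusted p = 0.00177, edgeR), the erythroid factor gene *Klf1* (3.8, adjusted p = 0.0115, edgeR) and the repressor gene *Gfi1b* (5.0, adjusted p = 0.000182, edgeR). All 11 megakaryocyte genes were called higher in wild type and P1-CTCF-KO and 10 of 11 in P2-CTCF-KO, among them the integrin gene *Itgb3* (7.96, adjusted p = 1.55e-05, edgeR). *Itga2b* is on this list too, but the HPCs were sorted on its product. Of all genes, 10.8%, 16.6% and 16.5% were called higher in the 3 genotypes. The list medians in wild type were 8.32 and 7.96, and 6.35 and 4.96 with the 3 and 6 genes that were at 0 in mesoderm set to their floor.

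Targets ascribed to GATA2 in progenitors did not move together. Of 8 tested, *Runx1* (3.19, adjusted p = 0.000256) and the myeloid factor gene *Spi1* (4.53, adjusted p = 0.0129) rose and *Mecom* (-4.36, adjusted p = 0.00658), which encodes EVI1, and the cell cycle kinase gene *Cdk6* (-1.82, adjusted p = 0.00115) fell in wild type by edgeR. The background in wild type was 10.8% of genes higher and 12.5% lower. The stem cell factor receptor gene *Kit* had -0.96 and was not called. In P2-CTCF-KO 4 of 7 were higher and 1 lower (list median 2.77), and in the same contrast 5 of 6 endothelial markers were higher and 1 lower (median 5.2). The background there was 16.5% of genes higher and 11.7% lower. The step differed from that of wild type by a median of 3.23 over the 7 targets and 5.41 over the 6 endothelial markers, with 0 genes of either called in the test of that difference. The targets started from 14.3 to 18.2 CPM summed in P2-CTCF-KO mesoderm against 27.4 to 73.5 in wild type.

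**Figure D5:**
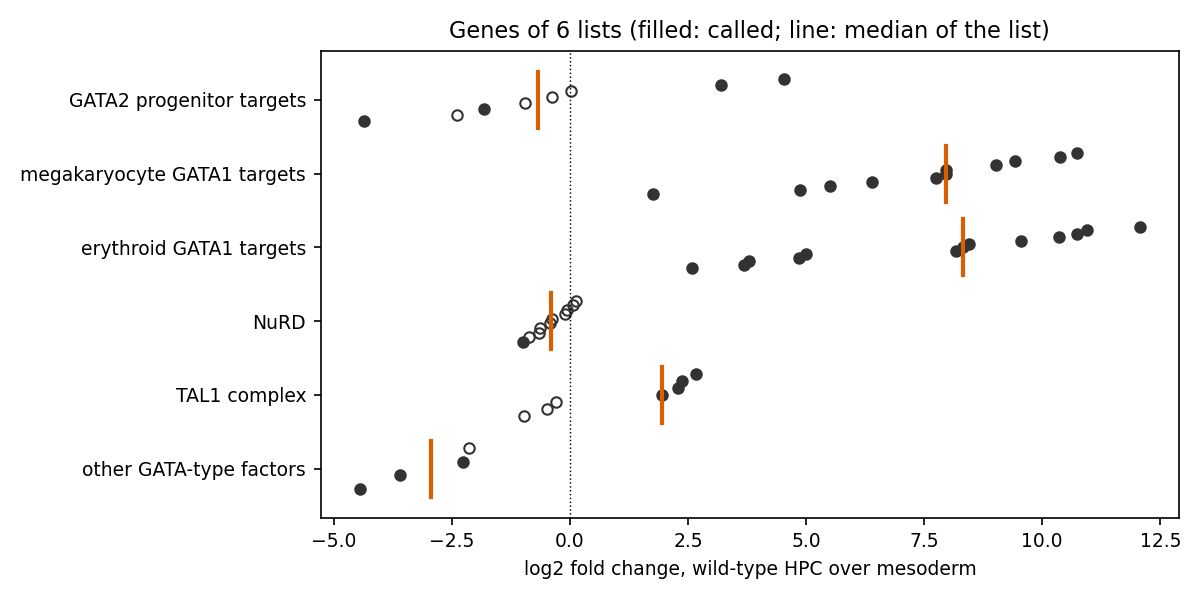
Log2 fold change of wild-type HPCs over mesoderm (horizontal axis) for each tested gene of 6 lists (rows), with filled points for genes called, open points for the others and an orange line at the list median. The erythroid and megakaryocyte targets lie between 1.76 and 12.07, the other GATA-type factors are all below 0, and the values of genes at 0 in mesoderm depend on the prior count.

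Markers of other cells moved with some of these libraries, and their part in the results was not tested. Of the mesoderm libraries wild-type B9.3 had the most endothelial RNA (8 markers summed, *Kdr* included, 114 CPM against 25.4 and 28.7 in the other wild-type clones) and the lowest *Gata3*. Without it the P2-CTCF-KO difference of *Gata3* in mesoderm was 0.36 in place of 0.81. Of the P2-CTCF-KO HPC libraries D2.1 had the most endothelial RNA (74.4 CPM against 12.6 to 37.4), the most RNA of other GATA-type factors (25.4 against 1.52 to 5.91) and the least erythroid RNA (57.7 against 140 to 352), beside the lowest *Gata1*, *Gata2* and *Zfpm1* and the highest *Gata3*. Without D2.1 the P2-CTCF-KO steps were 6.72 for *Gata1* and 2.02 for *Zfpm1*. Repeat libraries of a clone could differ as much as clones did, with erythroid sums of 140 and 305 CPM and megakaryocyte sums of 502 and 115 CPM in D10.1 and D10.1-2, where *Gata1* had 5.72 and 3.75 CPM. Of 4 T cell markers 2 were tested and fell with *Gata3* in wild type, *Tcf7* (-3.68) and *Bcl11b* (-3.44). The others, *Cd3e* and *Il7r*, were at 0 in wild-type mesoderm and HPCs. Of 5 tested markers of trophoblast and surface ectoderm 3 fell in wild type, *Cdx2*, *Hand1* and *Krt18* (background 12.5% lower). In the fit of HPC libraries alone no T cell or trophoblast marker passed the filter, while 2 and 4 did in that of mesoderm alone. The direction of these falls was thus largely set by the filter, and nothing is read from their counts. Of the other marker lists in wild type, 2 of 6 endothelial genes fell (*Kdr*, on whose product mesoderm was sorted, and *Cdh5*). Of 5 cardiac genes only 1 was tested, *Tnnt2*, and it rose (2.01). With single-locus library sizes or without multi-locus entries 2 cardiac genes were tested, and 1 was called higher and 1 lower. Of the pluripotency and macrophage genes tested, 0 of 4 and 0 of 1 were called.

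By likeness of pattern over the 23 libraries (Pearson correlation of log2 CPM, 12423 genes, points that share stage and library preparation), *Gata1* was closest to *Ache* (1.0), *Dap* (0.99) and *Treml2* (0.99), and *Zfpm1* to *Kalrn* (0.98) and *Zeb2* (0.98). *Gata3* was closest to A230077H06Rik (0.94), *Vstm2b* (0.94) and *Snai1* (0.93), and *Gata2* to Gm20716 (0.91), *Tnks* (0.89) and *Kif21b* (0.88). Over the 21 mesoderm and HPC libraries *Gata1* had 0.97 with *Zfpm1*, -0.02 with *Gata2* and -0.89 with *Gata3*.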

How the data were processed

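The deposited counts are whole reads per gene, made by the authors by aligning poly(A)-minus RNA-seq reads to mm9 with STAR and counting exons and introns with featureCounts. The strand setting is not given in the sources used here. The ATAC-seq and CTCF ChIP-seq files are peak lists, for which the submitters' notes name Bowtie2, deepTools and MACS2, and stage lists are from merged libraries. Labels give E14-TG2a for the ATAC-seq cells, while the study's methods name a reporter line.

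Counts were fitted with edgeR 4.0.16 (R 4.3.3) by the quasi-likelihood test with TMM normalization, filterByExpr (minimum count 10) and Benjamini-Hochberg adjustment. The wild-type stages, the 21 mesoderm and HPC libraries, and the genotypes within a stage were fitted separately. A call needed adjusted p under 0.05 and a log2 fold change of at least 1. Repeat libraries entered as libraries. Ratios used exact permutation tests in SciPy 1.17.1. The steps were tested on simulated data. Alternatives were RLE size factors, single-locus library sizes, no filter, DESeq2 1.42.0, a clone block and each library left out. Clones are the same cell lines at both stages, so their numbers pair the libraries; their deviations correlated from -0.09 to 0.13 over 9776 genes. Within groups, 29 pairs of libraries differed by more than sampling noise (chi-square per gene 2.53 to 35.14), so none was treated as a duplicate. Sequences and promoters were read from the mm9 genome and gene starts from its annotation.

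The genes named were the 4 members, the listed partners, targets and markers, and the 3 genes of most similar pattern to each member, of which 1 is not reported here. The members and lists were chosen with earlier results of these data known.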

Additional observations from a re-analysis of the deposited data

Results flagged for a closer look

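A gap test for 1 library far from its group (Dixon's ratio, 13 checks in groups of 4 or 5) marked 2 values, and chance marks about 1 in 20 groups. The log2 ratio of *Gata3* to *Gata2* was -4.17 in wild-type HPC library B9.3-2, where the other 3 had -5.24 to -5.1 (gap 0.877 of the range). All 4 libraries had 0 *Gata3* counts, so this ratio moved with the *Gata2* count, which was 5 there and 10 or 11 in the others. *Gata2* in P2-CTCF-KO HPC library D2.1 was 0.488 CPM against 0.845 to 0.969 in the other 4 (gap 0.741 of the range). The same library had the most endothelial RNA of its group, 74.4 CPM summed, and the part of that in the *Gata2* value was not tested.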

How the results depend on the processing

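Of 452 alternative values for the members' stage comparisons, 436 kept their direction and their side of the threshold. The clone block (pairing mesoderm and HPC libraries of a clone) gave wild-type steps of 5.99 for *Gata1*, -0.47 for *Gata2*, -7.28 for *Gata3* and 1.73 for *Zfpm1* and changed no call. Causes of the changes below were not tested.

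Signs turned for values that were not called. Single-locus library sizes gave -0.08 for the *Gata2* step in P1-CTCF-KO, -0.31 for the difference of its *Zfpm1* step from wild type, 0.16 for *Gata2* and 0.16 for *Zfpm1* in P1-CTCF-KO against wild-type mesoderm, and among HPCs -0.08 for *Gata1* and -0.15 for *Zfpm1* in P1-CTCF-KO and -0.14 for *Zfpm1* in P2-CTCF-KO against wild type, and 0.02 for *Zfpm1* in P2-CTCF-KO against P1-CTCF-KO. The *Gata2* step in P2-CTCF-KO was -0.02 with RLE, without multi-locus entries, without a filter and with DESeq2. *Zfpm1* in P2-CTCF-KO against wild-type HPCs was -0.03 without a filter or with clones summed and -0.01 with DESeq2 or all 23 libraries. The genotype difference in the *Gata1* to *Gata2* ratio of mesoderm was -0.43 (P2-CTCF-KO, 0.1 counts added) and -0.04 (P1-CTCF-KO, 2 added).

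Leaving libraries out singly, the ranges that crossed 0 were -0.12 to 0.47 and -0.07 to 0.21 for the *Gata2* step in P1-CTCF-KO and P2-CTCF-KO, -0.53 to 0.31 for the *Gata1* P1-CTCF-KO step difference (0.05 without mesoderm E7.2), -0.1 to 0.49 for the *Zfpm1* P2-CTCF-KO step difference, -0.32 to 0.25, -0.4 to 0.37 and -0.46 to 0.1 for *Gata2* (0.23 without wild-type C8.1), *Gata3* (-0.25 without E7.2) and *Zfpm1* in P1-CTCF-KO and -0.48 to 0.08 for *Zfpm1* in P2-CTCF-KO against wild-type mesoderm, -0.12 to 0.09 for *Zfpm1* in P2-CTCF-KO against P1-CTCF-KO mesoderm (0.04 without D10.1 or D2.1), and -0.37 to 0.12 and -0.19 to 0.15 for *Gata1* and *Zfpm1* in P2-CTCF-KO against wild-type HPCs. For the ratio they were -0.26 to 0.44 and -0.47 to 0.99 (P2-CTCF-KO and P1-CTCF-KO mesoderm, the latter -0.11 without E7.1) and -0.27 to 0.01 (P2-CTCF-KO HPCs).

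Single-locus library sizes moved the split of higher and lower calls over all genes, from 1386 and 1761 to 350 and 8564 for wild-type mesoderm against mESCs, from 1394 and 1613 to 1958 and 965 for wild-type HPCs against mesoderm, from 1518 and 1476 to 1015 and 1815 in P1-CTCF-KO and from 1515 and 1073 to 2495 and 542 in P2-CTCF-KO. The median of all genes moved from -0.18 to -1.84 and from -0.01 to 0.37 in the wild-type pair. P2-CTCF-KO against wild-type mesoderm had 3 calls, and 205 with these sizes, 431 without a filter, 168 with DESeq2 and 18 with all 23 libraries.

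Without division by gene length, the log2 ratio of *Zfpm1* to *Gata1* in HPCs was 3.07 in wild type, 3.01 in P1-CTCF-KO and 3.2 in P2-CTCF-KO, and that of *Gata3* to *Gata2* in P2-CTCF-KO mesoderm 1.89. Of the 3 genes most like each member, Spearman correlation left 1 for *Gata1*, 0 for *Gata2*, 1 for *Gata3* and 0 for *Zfpm1*, and Pearson correlation over 21 libraries left 0 for *Gata2*, 1 for *Gata3* and 0 for *Zfpm1*. With only peaks wider than the median, mesoderm had 0 at *Gata1* and 2 at *Gata3*, HPCs had 3 at *Zfpm1*, 416B CTCF had 0 at *Gata2* and 2 at *Zfpm1*, and 1 and 3 HPC peaks were shared at *Gata3* and *Zfpm1*. Within 50 kb, *Gata1* had 7 mesoderm, 1 HPC (shared) and 6 CTCF peaks, *Gata2* had 6 mesoderm and 4 CTCF peaks, *Gata3* had 12 mesoderm and 5 HPC peaks, and *Zfpm1* had 7 CTCF peaks.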
